A study of Homo sapiens with 8 samples.

Results

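The serpins and elafin-type inhibitors described here are 9 protease inhibitor genes of keratinocytes, taken by symbol from the 20294 genes of the deposited count table: SERPINB2, SERPINB3, SERPINB4, SERPINB5, SERPINB7, SERPINB13, SERPINE2, PI3 and SLPI. They were measured by RNA sequencing in HSC-5, a human cutaneous squamous cell carcinoma line that stably expressed Cas9 after lentiviral transduction. Cells carried the guide RNA sgEZH2-1 (3 libraries), the guide RNA sgEZH2-2 (3 libraries) or an empty vector (Control, 2 libraries), and guide carriers were selected with G418. Both guides target EZH2, the methyltransferase of Polycomb repressive complex 2 (PRC2). Per the design text, a further control was left out by the authors because it clustered apart. It was not analysed here, so the spread between the Control libraries may be understated. Nothing in the labels ties the libraries of a group to independent cultures, and the p-values reflect the variation among these libraries, technical variation possibly included. EZH2 protein loss was checked by western blot, per the design text.

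Serpins are suicide inhibitors: a protease cuts an exposed reactive loop, and the serpin then changes shape and traps the protease. Clade B serpins lack a classical signal peptide and act largely inside cells, while SERPINE2 is secreted. Elafin, encoded by PI3, and SLPI are small secreted inhibitors with WAP (whey acidic protein) domains that block neutrophil elastase. In the epidermis such inhibitors hold back the proteases of desquamation and of inflammation, and several are known to be abundant in inflamed skin and in squamous tumours. PRC2 marks silent genes with methylation of lysine 27 on histone H3.

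The libraries held between 12.6 M and 15.5 M counts each, and mitochondrial genes took 1.12% to 1.71% of them. Levels are given in CPM, counts per 1 M counts of the TMM-scaled library total. EZH2 itself was at 56.4, 56.3 and 48.0 CPM with sgEZH2-1 and at 73.9, 67.6 and 65.1 CPM with sgEZH2-2, against 82.7 and 84.1 CPM in Control. EZH2 fell with sgEZH2-1 (log2 fold change -0.64, adjusted p = 0.000529 in edgeR) and was not called with sgEZH2-2 (-0.28, adjusted p = 0.0699). It was lower with sgEZH2-1 than with sgEZH2-2 (log2 difference -0.36, adjusted p = 0.00844). Squamous markers were present throughout: the 10 keratinocyte markers summed to 2930 to 3280 CPM with sgEZH2-1, 2740 to 2820 with sgEZH2-2 and 3310 to 3390 in Control. Their levels were not constant at adjusted p of at most 0.05 in edgeR. With sgEZH2-1, KRT6A, KRT17 and CDH1 rose and TP63 fell, where 20.8% of all genes were called. With sgEZH2-2, KRT5, DSG3, DSC3, CDH1 and PKP1 fell and 0 rose, where 8.68% of all genes were called. Of 10 neutrophil markers 4 were at 0 in every library (MPO, ELANE, CTSG and FCGR3B); their sum was 2.33 to 2.47 CPM with sgEZH2-1, 3.46 to 4.65 with sgEZH2-2 and 1.92 to 2.48 in Control. The 10 leukocyte markers, with CD3E and MS4A1 among those at 0, summed to 14.3 to 18.8 CPM with sgEZH2-1, 11.7 to 13.9 with sgEZH2-2 and 14.3 to 14.7 in Control. The 9 fibroblast markers, with COL1A2 and POSTN at 0, summed to 5.02 to 8.89 CPM with sgEZH2-1, 11.0 to 14.0 with sgEZH2-2 and 6.13 to 7.24 in Control. The 8 endothelial markers, led by CDH5 and with KDR at 0, summed to 87.4 to 92.5 CPM with sgEZH2-1, 156 to 177 with sgEZH2-2 and 185 to 187 in Control. The 7 melanocyte markers, with TYR, DCT and SOX10 at 0, summed to 30.6 to 33.1 CPM with sgEZH2-1, 27.9 to 29.8 with sgEZH2-2 and 28.9 to 30.8 in Control. The part of these marker levels in the results was not tested.

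All 9 genes passed the filter on low counts, and each guide moved 5 of them, but not the same 5. With sgEZH2-1 against Control, SERPINB2, SERPINB4, SERPINB7 and PI3 rose and SERPINB13 fell, at adjusted p of at most 0.05 in edgeR's quasi-likelihood test. Of all 13124 genes tested in that comparison 20.8% were called, 11.3% higher and 9.51% lower. With sgEZH2-2 against Control, SERPINB3, SERPINB4, SERPINE2 and PI3 rose and SERPINB7 fell, where 8.68% of all genes were called, 6.18% higher and 2.5% lower. The median log2 fold change of the 9 genes was 0.96 with sgEZH2-1 and 0.29 with sgEZH2-2, beside -0.01 and 0.00 over all genes tested. SERPINB4 passed the filter only through sgEZH2-2 libraries, and SERPINB3 only through guide libraries, so these 2 genes could hardly enter the test without a difference. The counts and medians above include them, at 1.13 and 2.92 with sgEZH2-1 and 2.35 and 3.67 with sgEZH2-2 (SERPINB3 first). Without these 2 genes both medians are lower, and that with sgEZH2-2 is negative. The medians are therefore no result about the 9 genes as a set. Both comparisons share the Control libraries. In bulk RNA, fewer cells of a type and less RNA per cell cannot be told apart.

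**Figure D1:**
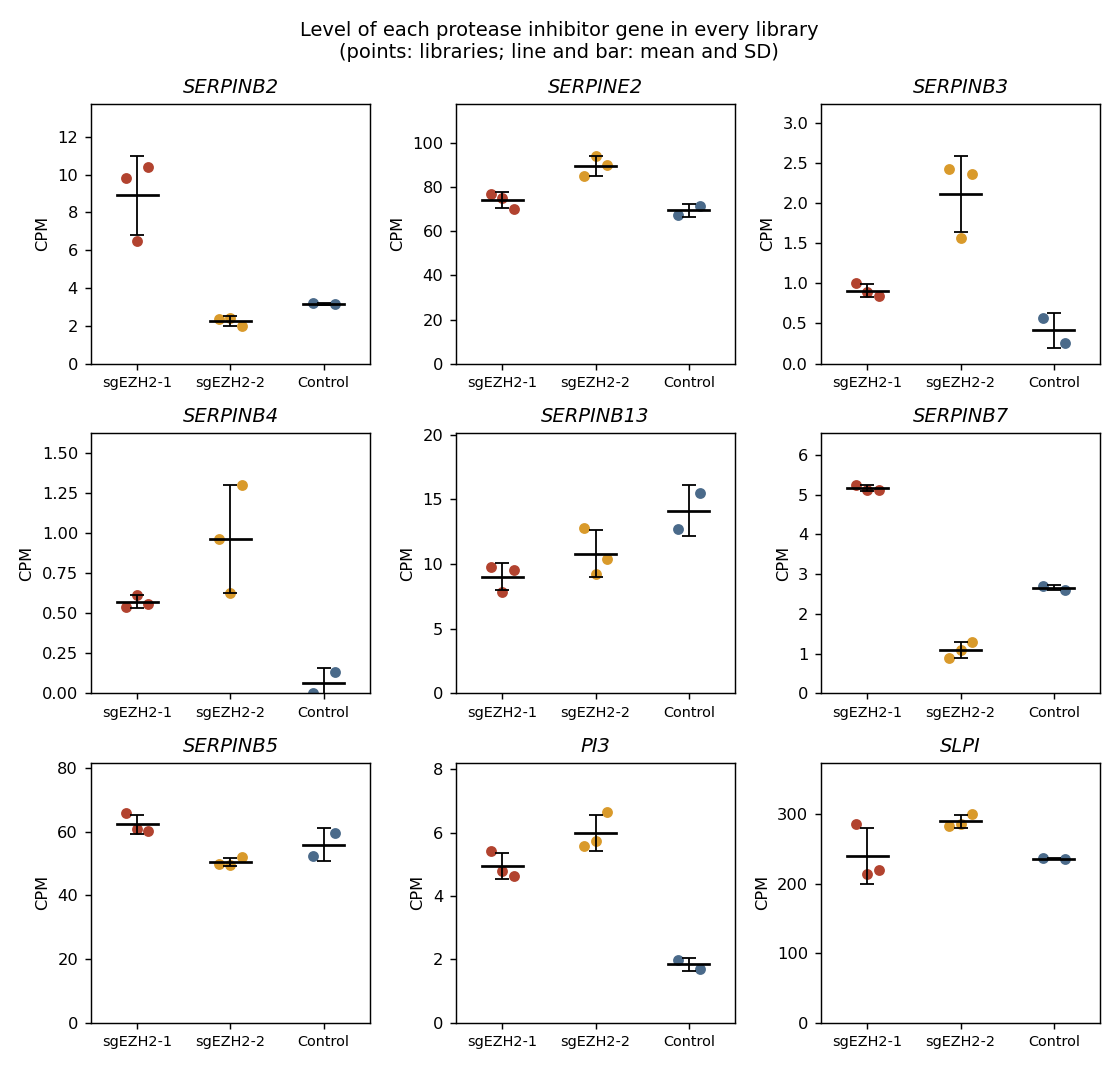
Level of each of the 9 genes in CPM (vertical axes, each from 0) in the libraries of sgEZH2-1, sgEZH2-2 and Control; points are libraries, and the line and bar give the mean and SD (n = 3, 3 and 2). SERPINB2 and SERPINB7 lie highest with sgEZH2-1, SERPINB3 lies highest with sgEZH2-2, and PI3 lies higher with both guides than in Control.

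**Figure D2:**
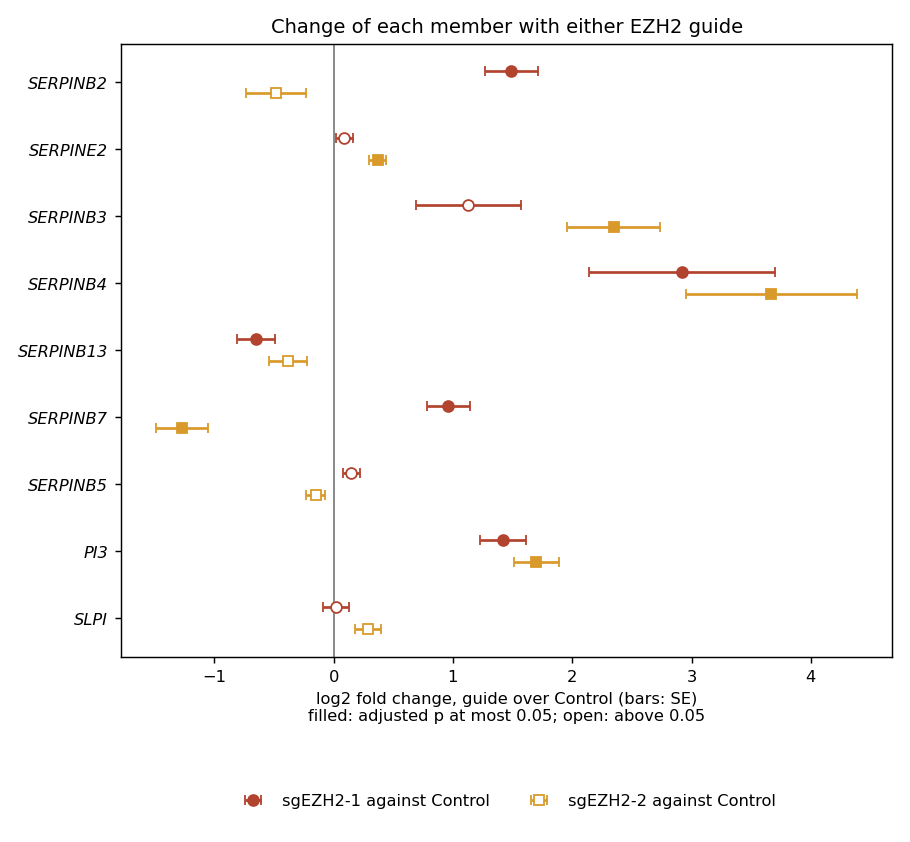
Log2 fold change of each gene over Control (horizontal axis, bars are SE) with sgEZH2-1 (circles) and sgEZH2-2 (squares); filled symbols have adjusted p of at most 0.05. The guides fall on opposite sides of 0 for SERPINB7, at 0.96 and -1.27, and on the same side for PI3, at 1.42 and 1.70.

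The 2 inhibitors of plasminogen activators and thrombin behaved differently. SERPINB2 (ENSG00000197632.8, chromosome 18, 63871692 to 63903890, plus strand, GRCh38) encodes plasminogen activator inhibitor type 2, which blocks urokinase and tissue-type plasminogen activator. It was at 9.81, 6.50 and 10.4 CPM with sgEZH2-1 and at 2.35, 2.44 and 1.98 CPM with sgEZH2-2, against 3.20 and 3.13 CPM in Control. Every sgEZH2-1 library lay above Control and every sgEZH2-2 library below it. SERPINB2 rose with sgEZH2-1 by 1.49 on the log2 scale (SE 0.22, adjusted p = 0.00115 in edgeR). With sgEZH2-2 its value was -0.48 (SE 0.25, adjusted p = 0.298), which was not called. The direct difference, sgEZH2-1 over sgEZH2-2, was 1.97 (SE 0.21, adjusted p = 0.000188). SERPINB2 shares 547 of its 2748 exon bases with SERPINB10 on the same strand, so reads there could be assigned to either gene; SERPINB10 had 8, 6 and 6 counts with sgEZH2-1, 2, 8 and 5 with sgEZH2-2, and 13 and 11 in Control.

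SERPINE2 (ENSG00000135919.12, chromosome 2, 223975112 to 224039319, minus strand) encodes protease nexin-1, which inhibits thrombin, urokinase and plasmin. Its level was 77.1, 75 and 70.2 CPM with sgEZH2-1 and 85.0, 94.2 and 89.9 CPM with sgEZH2-2, against 67.5 and 71.4 CPM in Control. The sgEZH2-2 libraries lay above all others, and the sgEZH2-1 libraries overlapped Control. SERPINE2 rose modestly with sgEZH2-2, by 0.37 on the log2 scale (SE 0.07, adjusted p = 0.00897 in edgeR), and was at 0.09 with sgEZH2-1 (SE 0.07, adjusted p = 0.376). The sgEZH2-2 call was lost without the first Control library (adjusted p = 0.0782). Between the guides the difference was -0.28 (adjusted p = 0.0108), lost without the second sgEZH2-2 library (adjusted p = 0.0543).

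SERPINB3 and SERPINB4 are neighbouring, near-identical genes on the minus strand of chromosome 18, known as the squamous cell carcinoma antigens. SERPINB3 (ENSG00000057149.15, 63655197 to 63661963) blocks papain-like cysteine proteases such as cathepsins L, K and S, and SERPINB4 (ENSG00000206073.10, 63637259 to 63644298) blocks chymotrypsin-like proteases such as cathepsin G and mast cell chymase. Their coding sequences of 1170 bases each differ at 56 bases, so that 95.2% are identical. In the GENCODE transcripts, 23.9% of the 50-base stretches of SERPINB3 also occur in SERPINB4, and 3.4% of its 100-base stretches. The counts of each are therefore uncertain to the extent that such reads were split or dropped. The 75 coding bases with the most differences, bases 949 to 1023 from the start codon, are printed to show what lets reads tell the copies apart, with the 12 differing bases in capitals.
SERPINB3: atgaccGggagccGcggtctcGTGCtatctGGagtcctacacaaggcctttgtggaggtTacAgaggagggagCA
SERPINB4: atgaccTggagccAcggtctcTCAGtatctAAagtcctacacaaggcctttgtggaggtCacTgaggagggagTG

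The promoters of this pair are shown because both genes were higher in all 6 guide libraries than in Control. They run from 250 bases before to 50 bases after the RefSeq start (GRCh38.p14), at chr18:63661844-63662143 for SERPINB3 and chr18:63644207-63644506 for SERPINB4, both on the minus strand and printed 5′ to 3′. Of 300 bases 98.7% are identical, and the 4 differing bases are in capitals. Counted from 1 at the 5′ end, with the base of SERPINB3 first, they are G126A, G201A, C228T and T260C.
SERPINB3: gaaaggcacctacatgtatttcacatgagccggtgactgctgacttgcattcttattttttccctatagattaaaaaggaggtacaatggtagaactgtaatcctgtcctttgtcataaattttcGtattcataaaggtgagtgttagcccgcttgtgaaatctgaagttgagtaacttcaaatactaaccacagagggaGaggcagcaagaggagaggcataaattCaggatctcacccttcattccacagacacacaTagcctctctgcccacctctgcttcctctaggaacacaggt
SERPINB4: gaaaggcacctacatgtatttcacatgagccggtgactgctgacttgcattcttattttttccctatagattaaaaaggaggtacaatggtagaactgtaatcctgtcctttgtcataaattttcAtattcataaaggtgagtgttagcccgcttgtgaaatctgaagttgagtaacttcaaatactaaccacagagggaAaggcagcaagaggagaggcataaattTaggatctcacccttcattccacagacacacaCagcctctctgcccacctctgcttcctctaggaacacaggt

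SERPINB3 was low in Control and highest with sgEZH2-2. It was at 1.00, 0.889 and 0.840 CPM with sgEZH2-1 and at 2.42, 1.57 and 2.36 CPM with sgEZH2-2, against 0.568 and 0.261 CPM in Control, which rest on 8 and 4 counts. The 3 groups did not overlap. SERPINB3 rose with sgEZH2-2 by 2.35 on the log2 scale (SE 0.39, adjusted p = 0.00438 in edgeR). With sgEZH2-1 the value was 1.13 (SE 0.44, adjusted p = 0.0927), which was not called. Between the guides it was -1.22 (SE 0.30, adjusted p = 0.0166). The sgEZH2-2 value was 1.89 without the second Control library (adjusted p = 0.0536) and 2.99 without the first (adjusted p = 0.0142). The difference between the guides lost its call without the second sgEZH2-1 library (adjusted p = 0.0563) or the third sgEZH2-2 library (adjusted p = 0.0631). SERPINB3 also shares 620 of its 1777 exon bases with SERPINB11 on the opposite strand, and the strand setting of the counting is not given in the sources used here; SERPINB11 had 1 count in all 8 libraries together.

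SERPINB4 was close to absent in Control, with 0 and 2 counts. It had 7, 9 and 8 counts with sgEZH2-1 (0.541, 0.616 and 0.560 CPM) and 14, 8 and 17 counts with sgEZH2-2 (0.966, 0.629 and 1.30 CPM), against 0 and 0.130 CPM in Control. Every guide library lay above both Control libraries. Since Control holds only 2 counts, the change is given as a ratio of summed counts per total with its exact 95% interval, which covers counting error only. The ratio was 8.44 with sgEZH2-1 (2.09 to 73.6) and 14.2 with sgEZH2-2 (3.68 to 122). Both were called in edgeR (adjusted p = 0.0246 and 0.0108), and the difference between the guides was not (log2 value -0.74, SE 0.42, adjusted p = 0.220). The sgEZH2-1 call was lost without the first Control library (adjusted p = 0.147), without the second sgEZH2-1 library (adjusted p = 0.0607) and in DESeq2 (adjusted p = 0.0614); the sgEZH2-2 call was lost without the first Control library (adjusted p = 0.0761). Without the second Control library, which holds both Control counts, the fitted values were 6.0 with sgEZH2-1 and 6.75 with sgEZH2-2, beside 2.92 and 3.67 with all libraries. Without the first or the third sgEZH2-2 library SERPINB4 did not pass the filter. Nor did it pass in a fit of only sgEZH2-1 and Control, or in a fit of only the guides.

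Because reads of the pair may be shared, their counts were also summed. The sum was 1.48 ± 0.0745 CPM with sgEZH2-1 (SD, n = 3) and 3.08 ± 0.774 CPM with sgEZH2-2 (SD, n = 3), against 0.480 ± 0.125 CPM in Control (SD, n = 2). As a single row the pair rose with both guides, by 1.62 on the log2 scale with sgEZH2-1 (adjusted p = 0.0128 in edgeR) and by 2.67 with sgEZH2-2 (adjusted p = 0.000959). It was lower with sgEZH2-1 than with sgEZH2-2 (log2 difference -1.06, adjusted p = 0.0140). The summed row, like its parts, passed the filter only through guide libraries. In the Control libraries it was at 0.568 and 0.391 CPM, below the filter level of 0.7 CPM. The sum could therefore hardly enter the test without a difference, and no alternative fits of it were run. SERPINB4 took 38.7% of the 62 pair counts with sgEZH2-1 (exact 95% interval 26.6% to 51.9%), 31.2% of the 125 with sgEZH2-2 (23.2% to 40.1%) and 14.3% of the 14 in Control (1.78% to 42.8%). These intervals overlap and cover counting error only, and a shift between the copies was not tested.

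SERPINB13 (ENSG00000197641.11, chromosome 18, 63586989 to 63604639, plus strand), also called headpin or hurpin, inhibits cathepsins L and K. It was at 9.73, 7.80 and 9.52 CPM with sgEZH2-1 and at 12.8, 9.20 and 10.4 CPM with sgEZH2-2, against 12.7 and 15.5 CPM in Control. All sgEZH2-1 libraries lay below Control, while the first sgEZH2-2 library lay between the Control libraries. SERPINB13 fell with sgEZH2-1 (log2 fold change -0.65, SE 0.16, adjusted p = 0.0176 in edgeR), and its value with sgEZH2-2 was -0.38 (SE 0.16, adjusted p = 0.183). The call was lost without the second Control library (adjusted p = 0.117) and without the second sgEZH2-1 library (adjusted p = 0.0690). The guides were not called different (-0.27, SE 0.15, adjusted p = 0.225). Its coding sequence is 67.6% identical to that of SERPINB3 and 67.3% to that of SERPINB4, the closest of the other serpins here to the pair.

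SERPINB7 (ENSG00000166396.12, chromosome 18, 63752935 to 63805376, plus strand) encodes megsin, whose loss in humans causes Nagashima-type palmoplantar keratosis, a disorder of the outer epidermis. It moved in opposite directions with the guides. Its level was 5.25, 5.13 and 5.11 CPM with sgEZH2-1 and 0.897, 1.10 and 1.30 CPM with sgEZH2-2, against 2.70 and 2.61 CPM in Control. The spread within each group was small beside the distance between them, and no group overlapped another. SERPINB7 rose with sgEZH2-1 by 0.96 on the log2 scale (SE 0.18, adjusted p = 0.00476 in edgeR) and fell with sgEZH2-2, where the log2 fold change was -1.27 (SE 0.22, adjusted p = 0.00588). The difference between the guides was 2.23 (SE 0.19, adjusted p = 5.60e-05), the widest of the 9 genes. With the guides pooled in 2 levels it was at 0.24 (adjusted p = 0.911).

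The promoters of SERPINB2 and SERPINB7 are printed because these 2 genes had the widest differences between the guides. RefSeq gives SERPINB2 a single start in this table, at chr18:63887455-63887754, and SERPINB7 3 starts, of which the third, at chr18:63777531-63777830, is shown because it held the most motif matches. Both are on the plus strand of GRCh38.p14, with the same 250 and 50 bases around the start. Capitals mark TATAAA, the TATA box core, and TGANTCA, the core bound by AP-1 factors, where N is any base. Both strands were searched, and TTTATA is the TATA core on the other strand.
SERPINB2: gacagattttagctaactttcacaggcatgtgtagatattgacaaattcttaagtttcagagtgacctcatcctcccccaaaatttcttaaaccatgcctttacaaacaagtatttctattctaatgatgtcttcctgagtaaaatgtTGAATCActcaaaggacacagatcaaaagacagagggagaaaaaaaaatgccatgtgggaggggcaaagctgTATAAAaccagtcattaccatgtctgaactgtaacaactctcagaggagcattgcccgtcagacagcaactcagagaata
SERPINB7: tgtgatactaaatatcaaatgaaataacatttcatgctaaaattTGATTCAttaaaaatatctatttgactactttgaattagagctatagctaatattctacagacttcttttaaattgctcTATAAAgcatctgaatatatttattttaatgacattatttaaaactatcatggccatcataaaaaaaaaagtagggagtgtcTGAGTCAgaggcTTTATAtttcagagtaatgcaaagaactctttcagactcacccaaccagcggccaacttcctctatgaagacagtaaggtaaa

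In the SERPINB2 promoter TATAAA begins 30 bases and TGAATCA 102 bases before the start. In the third SERPINB7 promoter TGAGTCA begins 45 bases and TGATTCA 206 bases before the start, with TATAAA at 127 bases and TTTATA at 33 bases. The RefSeq promoter table used here was matched for 7 of the 9 genes, with 10 starts in all; promoters of PI3 and SLPI were not analysed here. TGANTCA was also present at SERPINB5, SERPINB13 and the second SERPINB7 start. TATAAA was present at SERPINB13, where it begins 24 bases after the start rather than before it. SERPINE2, SERPINB3 and SERPINB4 held neither in these windows. The consensus of NF-kB, searched by name, occurred at the first SERPINB7 start. Of all 35116 promoters of this length, 11.5% held TATAAA, 7.71% TGANTCA and 5.91% the NF-kB consensus. A match describes letters in a window and does not show binding.

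SERPINB5 (ENSG00000206075.13, chromosome 18, 63476761 to 63505085, plus strand) encodes maspin, which keeps the serpin fold but does not inhibit proteases in the usual way and is known for roles in epithelial adhesion. It was at 65.7, 60.8 and 60.3 CPM with sgEZH2-1 and at 49.8, 49.6 and 52 CPM with sgEZH2-2, against 52.3 and 59.5 CPM in Control. The sgEZH2-1 libraries lay just above Control and the sgEZH2-2 libraries just below it. Neither comparison with Control was called (0.15, SE 0.07, adjusted p = 0.177, and -0.15, SE 0.08, adjusted p = 0.283, in edgeR). SERPINB5 was higher with sgEZH2-1 than with sgEZH2-2 by 0.30 on the log2 scale (SE 0.07, adjusted p = 0.0112).

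PI3 was low in Control and rose with both guides, while SLPI was abundant in every library. PI3 (ENSG00000124102.4, chromosome 20, 45174876 to 45176544, plus strand) encodes elafin, which inhibits neutrophil elastase and proteinase 3 and is crosslinked into the cornified envelope. It was at 5.41, 4.79 and 4.62 CPM with sgEZH2-1 and at 5.59, 5.74 and 6.64 CPM with sgEZH2-2, against 1.99 and 1.70 CPM in Control. All 6 guide libraries lay above both Control libraries. PI3 rose with sgEZH2-1 by 1.42 on the log2 scale (SE 0.19, adjusted p = 0.000611 in edgeR) and with sgEZH2-2 by 1.70 (SE 0.19, adjusted p = 0.000416). The direct difference of -0.28 (SE 0.14, adjusted p = 0.189) was not called. The main protease target of elafin, ELANE, was at 0 counts in every library.

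SLPI (ENSG00000124107.5, chromosome 20, 45252239 to 45254564, minus strand) encodes the secretory leukocyte protease inhibitor, which blocks elastase and cathepsin G. It was at 286, 213 and 219 CPM with sgEZH2-1 and at 283, 285 and 300 CPM with sgEZH2-2, against 236 and 235 CPM in Control. The first sgEZH2-1 library stood with the sgEZH2-2 libraries and the other 2 lay below Control. Neither guide was called against Control (0.02, SE 0.11, adjusted p = 0.915 with sgEZH2-1, and 0.29, SE 0.11, adjusted p = 0.128 with sgEZH2-2, in edgeR). Without the first sgEZH2-1 library SLPI was called with sgEZH2-2 (log2 fold change 0.29, adjusted p = 0.00365) and between the guides (-0.42, adjusted p = 0.000318). With all libraries the difference between the guides was -0.27 (SE 0.10, adjusted p = 0.0643). In a fit of only sgEZH2-2 and Control the adjusted p was 0.00800.

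Set against each other, the guides differed in 5 of the 9 genes, where 21.9% of all genes were called. SERPINB2, SERPINB5 and SERPINB7 were higher with sgEZH2-1, and SERPINB3 and SERPINE2 were lower with sgEZH2-1 than with sgEZH2-2. Libraries of the guides did not overlap in 7 of the 9 genes, against 42.2% of all genes tested. Against Control the libraries did not overlap in 7 genes with sgEZH2-1, where 48.0% of all genes did the same, and in 8 genes with sgEZH2-2, beside 39.7%. With the guides pooled against Control, SERPINB4 (log2 fold change 3.34, adjusted p = 0.0419 in edgeR) and PI3 (1.56, adjusted p = 0.00228) rose and 0 of the 9 fell, where 4.36% of all genes were called, 3.76% higher and 0.594% lower. All 6 guide libraries lay above Control for SERPINB3, SERPINB4 and PI3, beside 19.9% of all genes without overlap. SERPINB3 and SERPINB4 passed the filter only through guide libraries. Their place above Control and the pooled SERPINB4 call are therefore no result about the 9 genes as a set. Both are also among the genes without overlap between each guide and Control. The pooled SERPINB4 call was lost in each of the 6 fits without 1 library in which it was tested (adjusted p from 0.0501 to 0.317), and that of PI3 without the second Control library (adjusted p = 0.0532).

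Levels between genes were compared per kilobase of exon, since the exon length of these genes runs from 577 bases for PI3 to 8891 for SERPINE2. This length joins all annotated exons of a gene and can exceed that of any single transcript. For SERPINE2 the coding part is 1194 bases. The order between genes, such as PI3 beside SERPINE2, depends on this choice of length. SLPI led in every group, at 402 ± 67.9 CPM per kb with sgEZH2-1 (SD, n = 3), 485 ± 15.2 with sgEZH2-2 (SD, n = 3) and 396 ± 1.21 in Control (SD, n = 2). SERPINB5 came next, at 15.8 ± 0.750 CPM per kb with sgEZH2-1, 12.8 ± 0.335 with sgEZH2-2 and 14.2 ± 1.30 in Control. PI3 was at 8.56 ± 0.717 and 10.4 ± 0.978 CPM per kb with the guides and overlapped SERPINE2 there (8.33 ± 0.395 and 10.1 ± 0.517). In Control PI3 was at 3.19 ± 0.359 CPM per kb, below SERPINE2 at 7.81 ± 0.313, and overlapped SERPINB13 at 3.11 ± 0.438. SERPINB2 was at 3.24 ± 0.760 CPM per kb with sgEZH2-1, 0.821 ± 0.0877 with sgEZH2-2 and 1.15 ± 0.0170 in Control. SERPINB7 was the lowest of the 9 genes with sgEZH2-2, at 0.417 ± 0.0757 CPM per kb, where its libraries overlapped those of SERPINB4 (0.479 ± 0.166). With sgEZH2-1 and in Control SERPINB4 was the lowest, at 0.284 ± 0.0193 and 0.0324 ± 0.0458 CPM per kb.

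**Figure D3:**
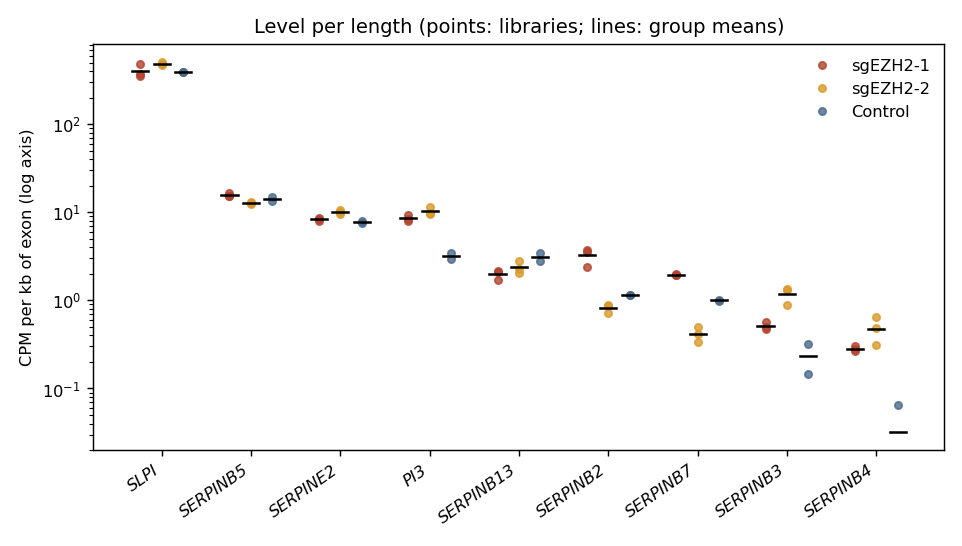
Level of each gene in CPM per kb of exon (vertical log axis), ordered by the Control mean; points are libraries of sgEZH2-1, sgEZH2-2 and Control, and lines are group means. The SERPINB4 library with 0 counts in Control has no place on a log axis. SLPI lies far above the other 8 genes, with 402, 485 and 396 CPM per kb.

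SERPINB2, SERPINB3, SERPINB4, SERPINB5, SERPINB7 and SERPINB13 belong to a cluster of 10 clade B genes within 543 kb of chromosome 18. Of the 10 genes 8 were tested: 4 rose and 1 fell with sgEZH2-1, and 2 rose and 1 fell with sgEZH2-2, with medians of 0.76 and -0.27 on the log2 scale. The rises with sgEZH2-2 were those of SERPINB3 and SERPINB4, and SERPINB4 was also among the rises with sgEZH2-1. This pair passed the filter only through guide libraries, so its rises are no result about the cluster. The medians include the pair. Of all genes tested 20.8% were called with sgEZH2-1 and 8.68% with sgEZH2-2, and 6 of the cluster's genes are among the 9 inhibitors already described. SERPINB8, at the far end, rose with sgEZH2-1 by 0.56 (adjusted p = 0.0284 in edgeR) and was at -0.10 with sgEZH2-2 (adjusted p = 0.771). Between SERPINB2 and SERPINB8 lies SERPINB10, at -0.76 and -1.11, not called with either guide (adjusted p = 0.303 and 0.232). SERPINB10 passed the filter only through the Control libraries, at 0.923 and 0.717 CPM, against 0.138 to 0.629 CPM in the guide libraries. It could therefore hardly enter the test without lying lower with the guides, and the cluster medians include it. SERPINB12 was at 0 counts in every library. In the other clade B cluster, on chromosome 6, SERPINB1, an inhibitor of neutrophil proteases, rose with both guides. It averaged 115 ± 5.20 CPM with sgEZH2-1 and 128 ± 2.98 CPM with sgEZH2-2 (SD, n = 3 each), against 81.5 ± 4.46 CPM in Control (SD, n = 2), a rise of 0.49 on the log2 scale with sgEZH2-1 (adjusted p = 0.000460 in edgeR) and 0.65 with sgEZH2-2 (adjusted p = 0.000171).

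**Figure D4:**
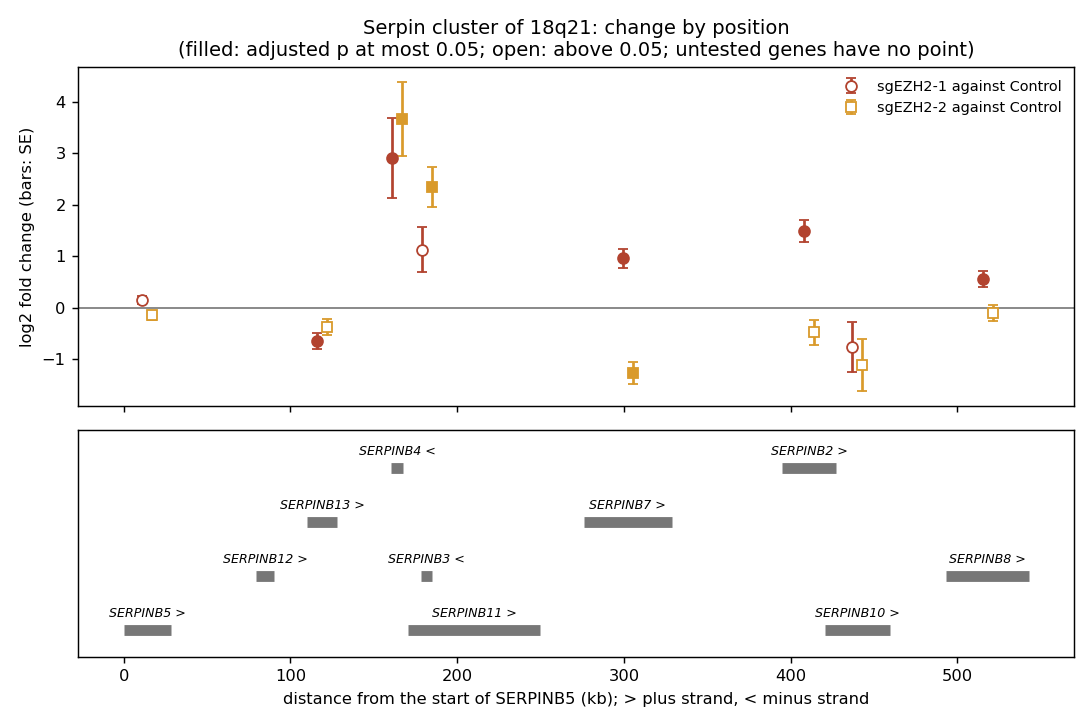
Upper panel: log2 fold change over Control (bars are SE) of the tested genes of the serpin cluster with sgEZH2-1 (circles) and sgEZH2-2 (squares), filled where adjusted p is at most 0.05. Lower panel: gene bodies to scale, in kb from the start of SERPINB5. SERPINB7 and SERPINB2 lie above 0 with sgEZH2-1 and below 0 with sgEZH2-2, and SERPINB4 and SERPINB3 lie above 0 with both.

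The counts of other inhibitors and of proteases that follow are to be read against the same shares of all genes, 20.8% called with sgEZH2-1 and 8.68% with sgEZH2-2. Of 17 WAP domain genes 5 were tested; beside PI3, WFDC2 rose with both guides, to 16.1 ± 0.799 CPM with sgEZH2-1 and 32.7 ± 4.81 CPM with sgEZH2-2 (SD, n = 3 each), against 10.1 ± 1.43 CPM in Control (SD, n = 2). Its log2 fold changes were 0.67 (adjusted p = 0.00985 in edgeR) and 1.69 (adjusted p = 7.17e-05), and its difference between the guides was -1.02 (adjusted p = 0.000330). Of 4 tested cystatins, which inhibit cysteine proteases, CST6 rose with sgEZH2-1 (1.21, adjusted p = 0.0310 in edgeR). It was low, at 19, 38 and 36 counts with sgEZH2-1, against 14 and 14 in Control. CSTA (-0.87, adjusted p = 9.05e-05) and CSTB (-0.30, adjusted p = 0.00748) fell with sgEZH2-1, and no cystatin was called with sgEZH2-2. Of 6 tested Kazal and Kunitz inhibitors SPINK5, the inhibitor of kallikreins in the epidermis, fell with sgEZH2-1 (-0.80, adjusted p = 0.0249), as did TFPI, the inhibitor of the tissue factor pathway (-0.34, adjusted p = 0.00743), and none was called with sgEZH2-2. Among 8 tested serpins outside both clusters 1 rose and 1 fell with sgEZH2-1. The fall was that of SERPINF1, which encodes PEDF, an inhibitor of blood vessel growth (-0.96, adjusted p = 0.00127). With sgEZH2-2 only SERPINE2 was called in that list.

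Of 9 tested plasminogen activation genes, which include SERPINB2 and SERPINE2, 6 rose and 1 fell with sgEZH2-1 (median 0.40 on the log2 scale), where 20.8% of all genes were called, and 2 rose and 2 fell with sgEZH2-2 (median 0.00), where 8.68% were. PLAU, which encodes urokinase, was at 542, 553 and 556 CPM with sgEZH2-1 and at 283, 278 and 303 CPM with sgEZH2-2, against 297 and 280 CPM in Control. It rose with sgEZH2-1 by 0.93 (adjusted p = 3.04e-06 in edgeR), and the sgEZH2-2 libraries straddled Control. PLAT, which encodes tissue-type plasminogen activator, fell with sgEZH2-1, to 22.8, 22 and 24.4 CPM, against 51.8, 58.8 and 52.1 CPM with sgEZH2-2 and 53.9 and 50.7 CPM in Control (log2 fold change over Control -1.18, adjusted p = 1.10e-05). PLAUR, the urokinase receptor, rose with sgEZH2-1 by 0.83 (adjusted p = 0.00373). LRP1, which clears serpin-protease complexes from the cell surface, rose with both guides, by 0.40 and 0.70.

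**Figure D5:**
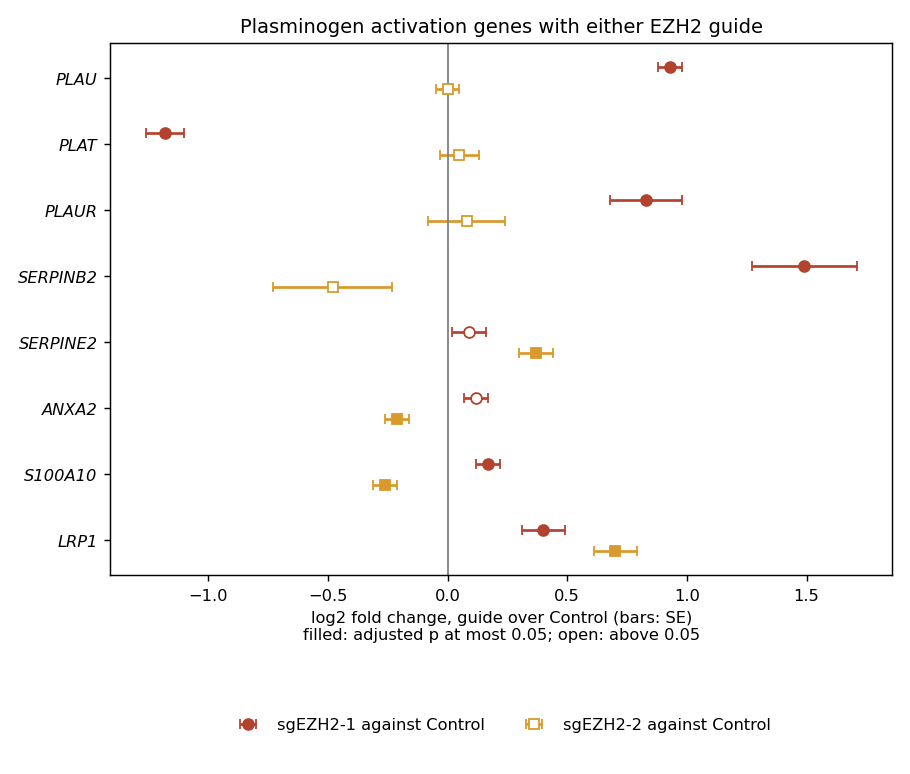
Log2 fold change over Control (horizontal axis, bars are SE) of 8 of the 9 tested plasminogen activation genes with sgEZH2-1 (circles) and sgEZH2-2 (squares); filled symbols have adjusted p of at most 0.05. PLAU and SERPINB2 lie at 0.93 and 1.49 with sgEZH2-1, and PLAT lies at -1.18.

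Of 16 tested genes of serine proteases and their receptors 8 rose and 2 fell with sgEZH2-1 (median 0.49; 20.8% of all genes called), and 3 rose and 0 fell with sgEZH2-2 (median 0.18; 8.68% of all genes called). PLAU, which rose with sgEZH2-1, and PLAT, which fell with it, are in this list and also among the plasminogen activation genes above. HTRA1, a secreted serine protease, rose with both guides, by 1.30 (adjusted p = 1.47e-05 in edgeR) and 1.11 (adjusted p = 9.51e-05). TMPRSS13, a membrane serine protease, rose by 0.64 and 0.65. The kallikrein KLK6 rose with sgEZH2-1 by 1.01 and was at -0.20 with sgEZH2-2 (adjusted p = 0.109), and KLK8 rose with both guides by 0.94 and 0.52. Of 11 tested cysteine cathepsins and legumain 1 rose and 1 fell with sgEZH2-1, and 1 rose and 0 fell with sgEZH2-2, which is near the share of all genes called with each guide (20.8% and 8.68%) and is no result about the cathepsins as a list. CTSL, a target of SERPINB3 and SERPINB13, rose with sgEZH2-1 by 0.27 (adjusted p = 0.00989), CTSH fell with sgEZH2-1 (-0.26), and CTSB rose with sgEZH2-2 by 0.47 (adjusted p = 0.000264). ELANE and CTSG, proteases of neutrophil granules, were at 0 counts in all 8 libraries.

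The genes whose pattern was most like each member were taken from 10631 other genes with a mean of at least 5 CPM, by Pearson's r of log2 CPM over the 8 libraries. The points share their 3 groups and library depth, and the values are a description. PI3 was most like INSR (r = 0.996) and RRAGD (0.990). SERPINB2 was most like SH3BP5 (0.993) and ASS1 (0.991), and SERPINB7 most like HSP90AB1 (0.994) and CENPN (0.990). Pearson's r does not take in the size of a change. With sgEZH2-1 and sgEZH2-2 over Control, HSP90AB1 was at 0.11 and -0.17 on the log2 scale, beside 0.96 and -1.27 for SERPINB7. SH3BP5 was at 0.24 and -0.08, beside 1.49 and -0.48 for SERPINB2. INSR was nearer in size to PI3, at 1.62 and 1.99 beside 1.42 and 1.70. SERPINB3 was most like CLSTN3 (0.986) and FAHD2B (0.980), SERPINB4 most like MX1 (0.977) and SERPINB1 (0.969), and SERPINB5 most like COPS8 and SIRT1 (0.984 each). SERPINE2 was most like SGPP2 (0.982) and TRIM4 (0.978), SLPI most like KIF13B (0.969) and SAMD12 (0.968), and SERPINB13 most like TMEM268 (0.961) and MPHOSPH9 (0.959), the lowest of these values.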

How the data were processed

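The 8 HSC-5 libraries were made by the stranded TruSeq mRNA protocol, per the labels. The deposited table holds unnormalized counts per gene. The submitters' processing notes name FastQC, STAR, DESeq and hg38. Tool versions, counter, annotation and strandedness of the counting were not given in the sources used here. The table held 20294 genes, 0 unnamed rows and 0 unused columns. Its columns name the group only, so libraries are numbered by column order within a group.

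The counts of 13124 genes passed filterByExpr (minimum count 10) and were tested with edgeR 4.0.16 (R 4.3.3) by the quasi-likelihood F test, two-sided, on TMM-scaled totals, with Benjamini-Hochberg adjustment over all genes tested and a threshold of 0.05. Each guide was set against Control, and the guides against each other, as contrasts of a fit of 3 groups. The pooled comparison was a fit of 2 levels. Standard errors were derived from the F statistic. No 2 libraries of a group agreed within sampling noise (chi-square per degree of freedom of at least 2.12 over genes). Code was tested on simulated data. Positions, exon lengths and transcripts came from GENCODE release 29 (GRCh38), promoters from RefSeq (GRCh38.p14); coding sequences were aligned with Biopython 1.88. Alternatives were DESeq2 1.42.0, other size factors, no filter, the summed SERPINB3 and SERPINB4 pair, other fits and leaving out each library. The members, the 17 gene lists and the tests were chosen with earlier results of these data known. Named genes were the members, EZH2, the neighbours in the serpin cluster and, from each list, up to 4 called genes with the smallest adjusted p with sgEZH2-1 and up to 3 with sgEZH2-2. Intervals cover counting error only: reads were not collapsed by molecular identifiers. Some genes of the lists are not reported here by name.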

Additional observations from a re-analysis of the deposited data

Results flagged for a closer look

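For 5 of the 9 inhibitor genes the effect of sgEZH2-1 differed from that of sgEZH2-2 by the direct test of the difference (edgeR, sgEZH2-1 over sgEZH2-2), where 21.9% of all genes tested were called. SERPINB7 differed by 2.23 on the log2 scale, with 3 of 3 sgEZH2-1 libraries above and 3 of 3 sgEZH2-2 libraries below Control. SERPINB2 differed by 1.97, with the same arrangement of libraries. SERPINB5 differed by 0.30, also with all sgEZH2-1 libraries above and all sgEZH2-2 libraries below Control, although neither guide was called against Control. SERPINB3 differed by -1.22, with both guides above Control; in edgeR this call was lost without the second sgEZH2-1 library (adjusted p = 0.0563) or the third sgEZH2-2 library (adjusted p = 0.0631). SERPINE2 differed by -0.28, with the sgEZH2-2 libraries clear of Control and the sgEZH2-1 libraries overlapping it; in edgeR this call was lost without the second sgEZH2-2 library (adjusted p = 0.0543).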

How the results depend on the processing

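Results of SERPINB2, SERPINB7 and PI3 for each guide against Control and between the guides kept their direction and their side of the threshold in each of 13 alternatives, as did the difference of SERPINB5 between the guides. Leaving out 1 library at a time, 3 to 5 inhibitor genes were called with sgEZH2-1 (3 to 4 rising, 0 to 1 falling; 5, 4 and 1 with all libraries). With sgEZH2-2 these were 3 to 6 (2 to 5 rising, 1 falling; 5, 4 and 1 with all libraries). Between the guides they were 4 to 6 (3 higher, 1 to 3 lower; 5, 3 and 2 with all libraries). With the guides pooled they were 0 to 1, rising, against 2 with all libraries. The average of the guides' contrasts in the 3-group model called 5 genes, 4 rising and 1 falling, by adding SERPINB3, SERPINE2 and SERPINB13. DESeq2 and the fit without a filter each added SLPI between the guides, giving 6. The direction turned in 4 uncalled values, and the cause was not tested: SLPI with sgEZH2-1 was at -0.13 without the first sgEZH2-1 library (range -0.13 to 0.11 over libraries left out), SERPINB5 with the guides pooled was at -0.07 without the first Control library (range -0.07 to 0.11) and -0.04 without the first sgEZH2-1 library, and SERPINB7 for the average of the guides was at -0.16. No paired analysis was possible because the columns carry no replicate number. Depth limits SERPINB4 and SERPINB3 most, with 2 and 12 counts in Control.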

Other observations

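Genes of epidermal inflammation, among which elafin is usually counted, were mixed. Of 13 tested genes of that list, which did not include the inhibitors themselves, 5 rose and 2 fell with sgEZH2-1 (median log2 fold change 0.28) and 2 rose and 0 fell with sgEZH2-2 (median 0.16). Of all genes tested 20.8% were called with sgEZH2-1 and 8.68% with sgEZH2-2. S100A9, an alarmin, rose with both guides, by 0.70 (adjusted p = 0.0130 in edgeR) and 1.15 (adjusted p = 0.00153). LCN2, an iron-binding defence protein, rose with sgEZH2-2 by 0.44 (adjusted p = 0.0110) and was at -0.05 with sgEZH2-1 (adjusted p = 0.732). KRT16, a keratin of wounds and psoriasis, rose with sgEZH2-1 by 1.09 (adjusted p = 0.000359). The neutrophil chemokine gene CXCL8 fell with sgEZH2-1, to 11.3 ± 0.959 CPM (SD, n = 3), against 27.4 ± 5.42 CPM with sgEZH2-2 (SD, n = 3) and 30.0 ± 1.46 CPM in Control (SD, n = 2), with a log2 fold change over Control of -1.41 (adjusted p = 0.000168). CXCL1, of the same family, had -1.04 with sgEZH2-1 (adjusted p = 0.00542).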
